A study of Mus musculus with 32 samples.

Results

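The 6 mouse genes that encode type IV collagen chains, Col4a1 to Col4a6, were followed through 32 RNA-seq libraries of photoreceptors, out of 54232 genes in the count table. The family was selected on the measured value of Col4a3, which has the 4th highest fold change of 17871 tested genes between Per1-/-Per2Brdm1 (KO) and wild-type (WT) libraries; the other 5 genes entered by name. The KO minus WT values of Col4a3 are therefore given as a description, with no test, and the number of members called in that contrast carries no weight as evidence about the family. The values of Col4a4, its neighbour on the chromosome, are tied to the same choice, so its p-values there are not independent evidence. All 6 genes passed the filter on low counts and were tested.

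Photoreceptors, the light-sensing rods and cones, had been cut by laser capture from sections of snap-frozen mouse eyes, and the study asked what the clock genes Per1 and Per2 do around the daily peak at which the pigment epithelium takes up shed outer segment tips. The KO mice carried Per1-/- together with Per2Brdm1, and the WT mice neither mutation; mice of both genotypes were males of 6 weeks on a C57BL/6/J x 129 SvEvBrd background. Eyes came from 4 circadian times (CT19, CT22, CT1 and CT10), and each of the 8 groups has 4 libraries. RNA was purified with the Qiagen RNeasy Micro kit and turned into libraries with the KAPA mRNA HyperPrep kit.

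Type IV collagen is the sheet-forming collagen of basement membranes, built from trimers of alpha chains. The chains of Col4a1 and Col4a2 make the network found in nearly every basement membrane, including those of blood vessels and the lens capsule. The chains of Col4a3, Col4a4 and Col4a5 make a second, more restricted network, known from the kidney glomerulus, the cochlea and the eye, and mutations of these genes in humans cause Alport syndrome. The chain of Col4a6 joins that of Col4a5 in a further network of smooth muscle and some epithelia. Photoreceptors themselves are not known for resting on a basement membrane of their own.

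The genes lie as 3 head-to-head pairs, each pair transcribed outwards from a shared region. On GRCm38, Col4a4 (ENSMUSG00000067158) runs on the minus strand of chromosome 1 from 82586849 down to 82448423, and Col4a3 (ENSMUSG00000079465) on the plus strand from 82586921 to 82722059, so that 71 bases separate their annotated first exons. Col4a1 (ENSMUSG00000031502, chromosome 8, 11198423 to 11312826, minus strand) and Col4a2 (ENSMUSG00000031503, chromosome 8, 11312805 to 11449287, plus strand) overlap by 22 bases of their first exons. Col4a6 (ENSMUSG00000031273, X chromosome, 141165403 to 141474076, minus strand) and Col4a5 (ENSMUSG00000031274, X chromosome, 141475385 to 141689234, plus strand) begin 1309 bases apart. The intervals of both close pairs are printed from RefSeq's promoter windows of GRCm38.p6, because one stands between the only members that differed between genotypes in every library and the other between members that did not. In the first, on the minus strand at chr1:82586820-82586950, capitals mark the 71 bases between the starts of Col4a4 and Col4a3; in the second, on the plus strand at chr8:11312775-11312854, capitals mark the 22 bases shared by the first exons of Col4a1 and Col4a2.
Col4a4 and Col4a3: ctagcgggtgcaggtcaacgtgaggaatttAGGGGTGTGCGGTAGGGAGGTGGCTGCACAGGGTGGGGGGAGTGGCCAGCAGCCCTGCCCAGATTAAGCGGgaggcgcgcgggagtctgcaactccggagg
Col4a1 and Col4a2: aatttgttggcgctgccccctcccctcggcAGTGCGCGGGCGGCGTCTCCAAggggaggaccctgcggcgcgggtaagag
Of the capitals, 69.0% are G or C in the first and 72.7% in the second. Binding motifs of clock factors were searched on both strands in the promoter windows of the 5 members that have one (Col4a1, Col4a2, Col4a4, Col4a5 and Col4a6). The E-box CACGTG, bound by CLOCK and BMAL1, was in no member window, against 7.15% of all 32851 windows, and neither D-box searched, TTATGTAA (0.938% of windows) or TTACGTAA (0.119%), was in any. AGGTCA, the half-site of REV-ERB and ROR receptors, was in the window of Col4a4 and in 16.3% of all windows. It lies in the lower-case bases before the capitals above, which are inside the annotated Col4a3 gene, at its start. These are matches of letters in a window and say nothing of binding.

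The libraries held 23833604 to 34582742 counts each. Per1 averaged 208 ± 41.0 CPM (the count scaled to library size by TMM) in KO and 118 ± 18.7 CPM in WT (SD, n = 16 each), and Per2 198 ± 24.5 CPM in KO and 30.7 ± 8.30 CPM in WT; a gene-level count takes in exons outside a deleted part, so these values do not check the labels. Gnat1, the transducin subunit of rods, stood at 18315 ± 2465 CPM in KO and 19952 ± 2496 CPM in WT. Of 8 rod markers, 1 was called higher and 3 lower in KO, and of 8 cone markers, 1 higher and 4 lower. Markers of other cells were present as well, and several lists moved with genotype. Called higher in KO were 9 of 12 bipolar cell, 7 of 11 Müller glia and 7 of 12 vascular endothelium markers. Of all genes tested, 9.88% were. None of these 3 lists had a marker called lower. Of 9 pericyte markers, 4 were called higher and 1 lower in KO. The bipolar marker with the highest CPM, Prkca, had 283 ± 38.5 CPM in KO and 281 ± 25.4 CPM in WT. Next in CPM, Lrit3 had 126 ± 12.9 CPM in KO and 124.5 ± 13.6 CPM in WT. Trpm1, which followed, had 54.6 ± 16.6 CPM in KO and 33.7 ± 17.7 CPM in WT. The endothelial markers summed to 50.9 to 127 CPM in KO and 31.4 to 90.9 CPM in WT. Kdr was the highest, at 51.2 ± 14.7 CPM in KO and 38.8 ± 10.7 CPM in WT. Flt1 followed, at 16.5 ± 4.40 CPM in KO and 12.3 ± 5.06 CPM in WT. Pecam1, next in CPM, went the other way and was not called. It had 4.96 ± 0.87 CPM in KO and 5.67 ± 0.91 CPM in WT (adjusted p = 0.157, edgeR). The 13 lens markers summed to 242 to 7222 CPM in KO and 70.1 to 12507 CPM in WT, with 1 called, lower in KO.

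Col4a3 stood far higher in KO photoreceptors than in WT at every time. At CT19 it had 174, 185, 189 and 234 CPM in KO libraries, against 11.4, 18.9, 27.5 and 28.1 CPM in WT. At CT22 the KO libraries had 163, 187, 225 and 243 CPM and the WT libraries 19.6, 24.5, 28.4 and 30.1 CPM. The lowest KO library at either time was above every WT library. At CT1 Col4a3 had 230.1, 238, 276 and 289 CPM in KO and 19.6, 22.5, 23.1 and 34.7 CPM in WT. At CT10 it had 171, 232, 251 and 285 CPM in KO and 30.1, 33.1, 44.1 and 64.0 CPM in WT. The WT level was highest at CT10, and there too the genotypes did not overlap.

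Over the 16 libraries of each genotype, Col4a3 averaged 223 ± 41.0 CPM in KO and 28.7 ± 12.1 CPM in WT (SD), with log2 fold changes (KO over WT, ± SE) of 3.19 ± 0.26 (CT19), 2.99 ± 0.26 (CT22), 3.37 ± 0.26 (CT1), 2.45 ± 0.25 (CT10) and 3.0 ± 0.13 over the mean of the times, or 8.01-fold. The KO libraries had 4412 to 9036 counts of Col4a3 and the WT libraries 356 to 2071, so counting error is small beside the spread between libraries. Because these are bulk samples, more cells that carry the transcript and more of it per cell cannot be told apart. With the level of lens, vascular (endothelium and pericyte) or inner retina (bipolar, amacrine and Müller glia) markers as a covariate, the mean log2 fold change was 3.0, 3.0 or 3.13. The gene shares 563 exon bases, or 5.65% of its exon length, with C430014B12Rik on the opposite strand, which itself had 1 to 11 counts in KO and 0 to 8 in WT libraries.

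Col4a4, whose chain joins that of Col4a3 in the same trimer, was higher in KO as well, by a smaller factor. It had 65.5, 65.7, 82.9 and 88.0 CPM in KO and 12.3, 21.1, 22.1 and 29.2 CPM in WT at CT19. At CT22 it had 62.4, 79.4, 83.2 and 84.3 CPM in KO and 21.2, 21.3, 23.5 and 27.5 CPM in WT. Every KO library was above every WT library at these times. At CT1 it had 61.0, 75.5, 101 and 112 CPM in KO and 18.2, 18.6, 22.9 and 28.4 CPM in WT. At CT10 it had 73.1, 83.2, 84.8 and 90.6 CPM in KO and 26.9, 28.1, 31.2 and 37.4 CPM in WT. Again no library of one genotype reached into the range of the other.

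The means of Col4a4 were 80.8 ± 13.9 CPM in KO and 24.4 ± 6.01 CPM in WT (SD, n = 16 each), a log2 fold change of 1.74 ± 0.10 (SE; 3.35-fold; adjusted p = 1.26e-13, edgeR's quasi-likelihood test with Benjamini-Hochberg adjustment), the 36th highest of 17871. By time its log2 fold change was 1.84 ± 0.20 (CT19, adjusted p = 6.27e-07), 1.73 ± 0.20 (CT22, 1.73e-06), 1.99 ± 0.20 (CT1, 1.30e-07) and 1.42 ± 0.20 (CT10, 2.36e-05), called each time. Of all genes tested, 16.3% were called over the mean of the times, 9.88% as higher in KO, with 5.19% (CT19), 1.53% (CT22), 1.58% (CT1) and 10.2% (CT10) at single times. A gap between all 16 KO and all 16 WT libraries, as both genes of the pair had, occurred in 0.476% of genes. Of the 5 members tested in this contrast, Col4a4 was the 1 called, over the mean and at each time. Since the family was proposed for its partner's value, nothing is read from that count. Over the 32 libraries Col4a4 correlated with Col4a3 at r = 0.98, so its p-values here are not independent of that choice. The covariates for lens, vascular and inner retina markers gave 1.73, 1.77 and 1.84.

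**Figure D1:**
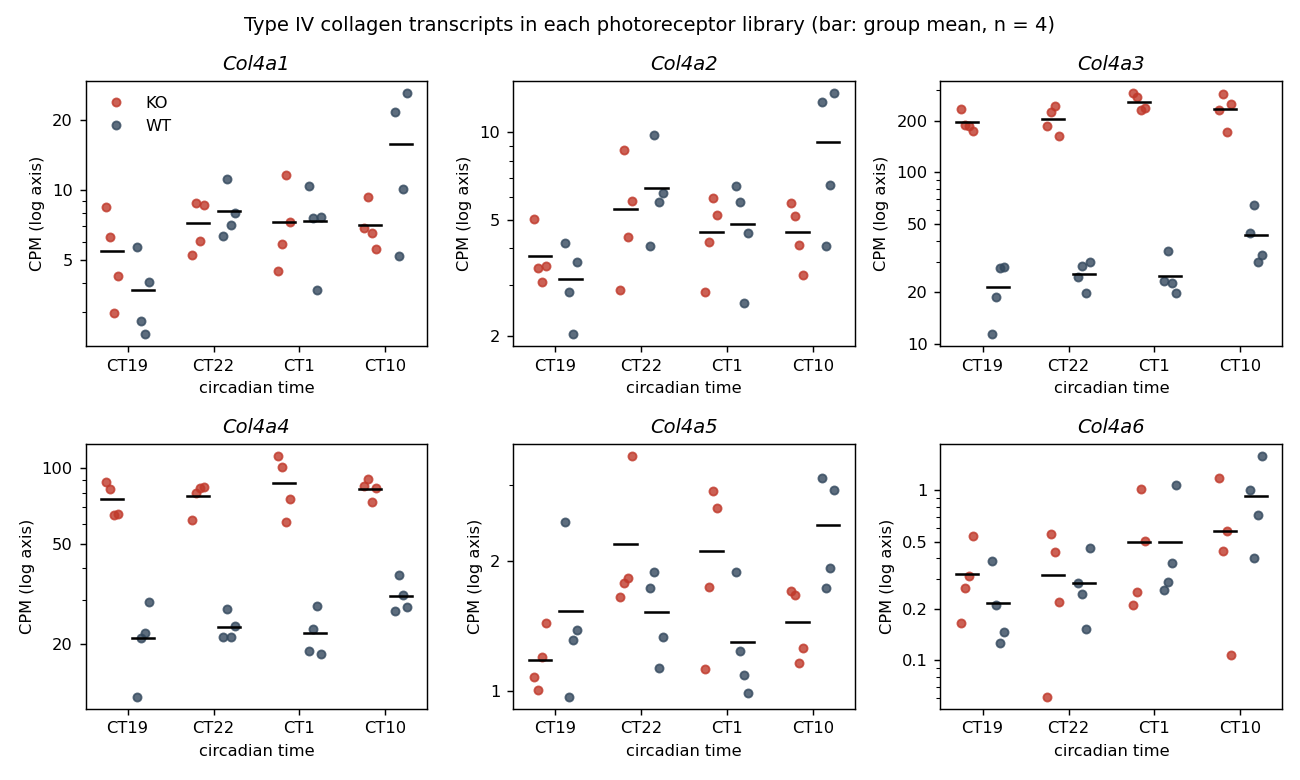
CPM (log axis) of each type IV collagen gene by circadian time, with 1 point per library, KO left of WT, and a bar at each group mean (n = 4). Col4a3 and Col4a4 show a gap between KO and WT libraries at every time. The other genes overlap, except Col4a5 at CT10, where the highest KO library had 1.71 CPM and the lowest WT library 1.73 CPM (not called). The highest Col4a1 values are 21.6 and 26.1 CPM in WT at CT10.

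**Figure D2:**
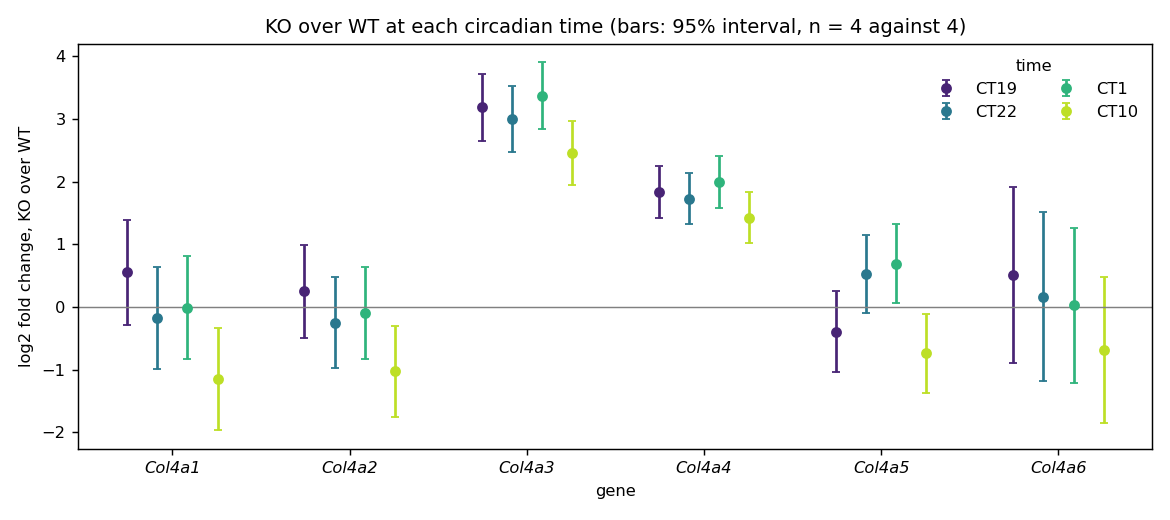
Log2 fold change of KO over WT at each circadian time for the 6 genes, with 95% intervals (n = 4 against 4). Col4a3 lies between 2.45 and 3.37 and Col4a4 between 1.42 and 1.99, in both cases lowest at CT10; the values of Col4a3 are a description, since it was selected on them.

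Col4a3 and Col4a4 stood at different ratios to each other in the 2 genotypes. Per kilobase of exon, Col4a3 stood at 22.4 ± 4.12 CPM in KO and 2.88 ± 1.21 CPM in WT, and Col4a4 at 7.62 ± 1.31 CPM in KO and 2.30 ± 0.57 CPM in WT (SD, n = 16 each). The ratio of Col4a3 to Col4a4 on that scale, formed within each library and so free of its scaling, was 2.96 ± 0.44 in KO (2.06 to 4.01) and 1.23 ± 0.29 in WT (0.845 to 1.82). The ranges did not overlap; this follows in part from the value by which Col4a3 was selected and was not tested. By time the mean ratio was 2.77, 2.84, 3.25 and 2.99 in KO and 1.07, 1.17, 1.23 and 1.46 in WT at CT19, CT22, CT1 and CT10. For the pair Col4a1 and Col4a2 the ratio was 1.34 ± 0.27 in KO and 1.24 ± 0.23 in WT, with ranges that overlapped.

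**Figure D3:**
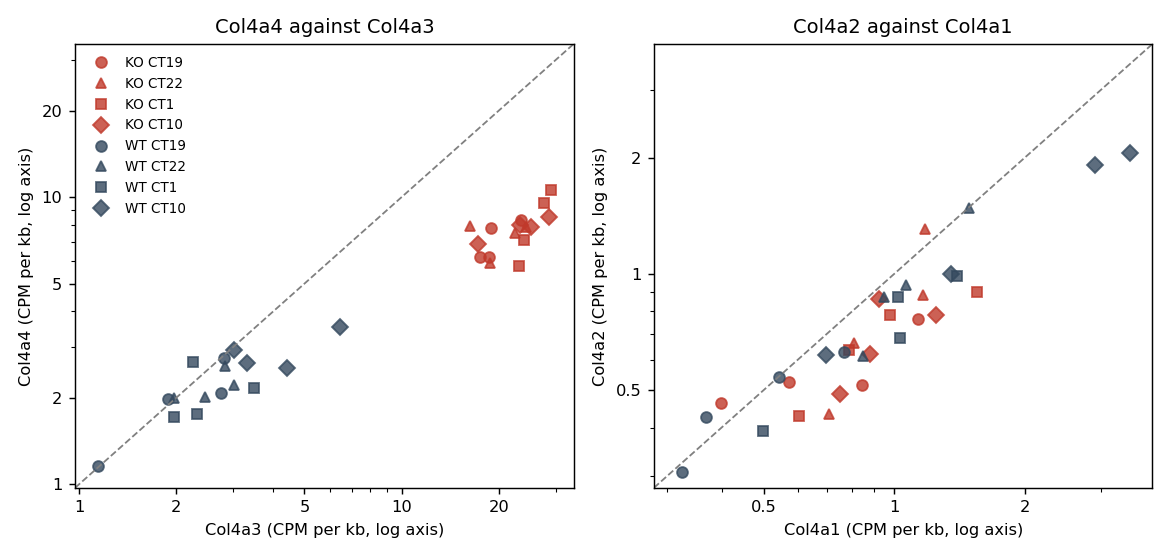
CPM per kilobase of exon (log axes) of Col4a4 against Col4a3 and of Col4a2 against Col4a1, 1 point per library, with the line of equal levels dashed. KO libraries stand apart from WT libraries and below the line in the first panel, where Col4a3 over Col4a4 averages 2.96 in KO and 1.23 in WT; in the second the genotypes mix, with 2 WT CT10 libraries highest.

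Col4a3 and Col4a4 lie on the same chromosome as Per2, whose Brdm1 allele all KO mice carry; the starts of Col4a3 and Per2 are 8.872 Mb apart. The allele and whatever chromosome 1 sequence was bred along with it are in the same libraries and cannot be told apart here. The genes closest to the pair had small log2 fold changes, from -0.25 to 0.46. Of 8 other tested genes with bodies within 500 kb of it, 0 were called over the mean of the times by edgeR, 2 had an unadjusted p under 0.05, and 0 were called by DESeq2. Mff, which encodes a mitochondrial fission factor and begins next after Col4a3, had 104 ± 5.71 CPM in KO and 97.5 ± 9.55 CPM in WT (log2 fold change 0.09 ± 0.04, adjusted p = 0.177). Rhbdd1, a rhomboid protease gene that ends next to Col4a4, had 24.9 ± 2.22 CPM in KO and 23.4 ± 3.89 CPM in WT (0.10 ± 0.04, adjusted p = 0.0958). Irs1, the insulin receptor substrate, had 8.34 ± 2.41 CPM in KO and 9.93 ± 2.04 CPM in WT (-0.25 ± 0.10, adjusted p = 0.0891). The remaining neighbours, Gm28941, Agfg1, A030005L19Rik, Gm7553 and Slc19a3, had log2 fold changes from 0.01 to 0.46 with adjusted p from 0.382 to 0.896.

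In wider windows, leaving out Col4a3, Col4a4 and Per2, the share of called genes can be set beside that of other chromosomes, 16.4% of 16718 genes. Within 1 Mb of Col4a3, 1 of 11 genes was called, Gm37517 (log2 fold change 0.96, adjusted p = 0.0160 by edgeR), named after its value was seen. Within 5, 10 and 20 Mb the shares were 13.6% of 66, 19% of 153 and 15.2% of 256 genes, and among 68 genes between Col4a3 and Per2 16.2%. Around Per2 they were 4 of 15 genes within 1 Mb, 12.3% of 81 within 5 Mb, 12% of 117 within 10 Mb and 18.4% of 223 within 20 Mb, and 14.4% of 877 genes elsewhere on chromosome 1. Absolute log2 fold changes of at least 1, called or not, were held by 0 of 11 genes within 1 Mb of Col4a3, 0 of 66 within 5 Mb, 1.96% within 10 Mb and 2.73% (7 genes) within 20 Mb, by 2 of 15 within 1 Mb of Per2, and by 1.48% of genes on other chromosomes. Of the 7, 4 are the lens crystallin genes Cryge, Crygd, Cryga and Crygf, named after their values were seen, which were not called (log2 fold changes -1.33 to -1.02, adjusted p from 0.0713 to 0.213 by edgeR).

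Besides the pair and Per2, 3 genes within 20 Mb were called and lay 1 log2 unit or more from WT. Klhl30 and Erfe, which start 8.76 and 8.78 Mb from Col4a3 and so beside Per2, had log2 fold changes of 1.51 ± 0.21 (3.83 ± 0.93 CPM in KO and 1.68 ± 1.57 in WT, adjusted p = 3.88e-06) and 2.80 ± 0.38 (0.235 ± 0.120 CPM in KO and 0.049 ± 0.055 in WT, adjusted p = 2.94e-06). By time (CT19, CT22, CT1 and CT10), Klhl30 was at 2.42, 2.15, 1.67 and -0.20 and Erfe at 4.62, 4.25, 1.89 and 0.45, while the lowest values of Col4a3 and Col4a4 were 2.45 and 1.42. Tnp1, a spermatid transition protein gene on the far side of Col4a3 from Per2, had 1.60 ± 0.35 at a level of 0.312 ± 0.106 CPM in KO and 0.101 ± 0.098 in WT (adjusted p = 0.0021). None of the 256 other genes within 20 Mb had a gap between all KO and all WT libraries, which 85 of all tested genes had.

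**Figure D4:**
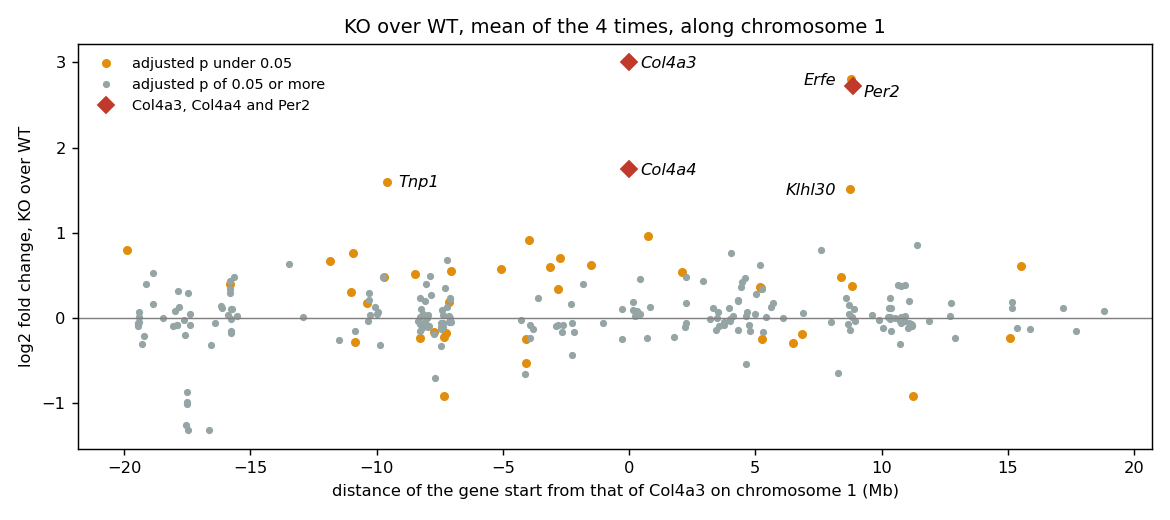
Log2 fold change of KO over WT (mean of the times) for tested genes within 20 Mb of Col4a3 on chromosome 1, by distance from its start; colours mark the adjusted p, and red diamonds Col4a3, Col4a4 and Per2. Col4a3 and Col4a4 stand at 3.0 and 1.74 above neighbours within 500 kb that lie between -0.25 and 0.46.

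Col4a1 and Col4a2, the chains of the common network, were not called between genotypes. Col4a1 ranged from 2.97 to 11.6 CPM in KO (median 6.43) and from 2.42 to 26.1 CPM in WT (median 7.33), and Col4a2 from 2.84 to 8.67 CPM in KO (median 4.29) and from 2.03 to 13.6 CPM in WT (median 5.14). The ranges overlapped, and the mean log2 fold changes were -0.20 ± 0.20 (95% interval -0.61 to 0.22, adjusted p = 0.561) for Col4a1 and -0.28 ± 0.18 (-0.65 to 0.09, adjusted p = 0.314) for Col4a2. At CT10 Col4a1 had 5.60, 6.57, 6.89 and 9.33 CPM in KO and 5.19, 10.1, 21.6 and 26.1 CPM in WT. Col4a2 there had 3.23, 4.09, 5.17 and 5.71 CPM in KO and 4.08, 6.60, 12.7 and 13.6 CPM in WT. The 2 highest WT libraries were the same for both genes, replicates 1 and 5. The title of replicate 5 holds the letter R and those of all other libraries the letter L, read here as right and left eye. The CT10 log2 fold changes of -1.15 ± 0.40 for Col4a1 (adjusted p = 0.0659) and -1.02 ± 0.36 for Col4a2 (adjusted p = 0.0642) did not pass the threshold in edgeR. Both passed with DESeq2 (adjusted p = 0.0445 and 0.0299) and, in edgeR, without WT CT10 replicate 2 (0.0215 and 0.0273) or with the inner retina level (0.0309 and 0.0065) or the vascular level (0.0285 and 0.0046) as a covariate. With the lens level as a covariate they were -0.42 (adjusted p = 0.504) and -0.48 (0.415), and without the right-eye library and the WT CT1 library whose title carries 2 animal numbers -0.81 (0.243) and -0.79 (0.207). These marker levels themselves differed by genotype at CT10. The bipolar level was 5.25 ± 0.21 in KO and 3.87 ± 0.46 in WT. The vascular endothelium level was 1.06 ± 0.29 and -0.24 ± 0.46, and the lens level 4.41 ± 1.60 and 6.98 ± 0.90. Fits with these covariates therefore cannot separate genotype from marker level there.

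Within WT, the level of both genes changed with time. In the order CT19, CT22, CT1 and CT10, Col4a1 averaged 3.74 ± 1.51, 8.12 ± 2.11, 7.36 ± 2.76 and 15.8 ± 9.74 CPM (SD over 4 libraries), a range of 2.07 log2 units (adjusted p = 0.0062, edgeR F test). Col4a2 averaged 3.15 ± 0.92, 6.46 ± 2.40, 4.86 ± 1.73 and 9.25 ± 4.65 CPM at the same times, a range of 1.55 (adjusted p = 0.0186). Both were lowest at CT19 and highest at CT10, where libraries varied most. The call of Col4a2 was lost without WT CT10 replicate 1 (adjusted p = 0.0647) or replicate 5 (0.0774), and with the right-eye WT CT10 library and the WT CT1 library with 2 animal numbers both left out it was at 0.0946, with Col4a1 at 0.0493. The lens marker level in WT, a mean log2 CPM, was 3.53 ± 1.98, 4.3 ± 1.86, 7.47 ± 0.89 and 6.98 ± 0.90 over these times, and the bipolar marker level was 4.67 ± 0.31, 4.98 ± 0.25, 4.39 ± 0.47 and 3.87 ± 0.46. With the lens level as a covariate the range was 1.16 for Col4a1 (adjusted p = 0.0174) and 1.06 for Col4a2 (0.0278).

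Col4a5, which completes the restricted network, and Col4a6 were low, and over all times their ranges overlapped between the genotypes. Col4a5 ranged from 1.01 to 3.51 CPM in KO (median 1.66) and from 0.971 to 3.11 CPM in WT (median 1.56), with a log2 fold change of 0.02 ± 0.15 (95% interval -0.30 to 0.33, adjusted p = 0.950). The interval excludes changes of the size seen for Col4a3 and Col4a4. By time its log2 fold changes were -0.39, 0.52, 0.69 and -0.74 (SE 0.31 each; CT19, CT22, CT1 and CT10), with adjusted p from 0.123 to 0.538. The mean thus joins opposite directions, with 95% intervals of 0.06 to 1.32 at CT1 and -1.37 to -0.12 at CT10. Unadjusted p-values there were 0.0338 and 0.0211 (edgeR). At CT10 Col4a5 had 1.16 to 1.71 CPM in KO and 1.73 to 3.11 CPM in WT, so the closest libraries nearly met. How many of all genes have such a gap between 4 and 4 libraries was not counted. The genotype by time test of Col4a5 had an unadjusted p of 0.0056 and an adjusted p of 0.124 in edgeR, and an adjusted p of 0.0418 in DESeq2.

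Col4a6 ranged from 0.061 to 1.18 CPM in KO (2 to 34 counts, median 0.375 CPM) and from 0.127 to 1.60 CPM in WT (3 to 52 counts, median 0.333 CPM). Its log2 fold change of 0.003 ± 0.22 had a 95% interval from -0.44 to 0.45 (adjusted p = 0.996). Over the 4 times in WT it averaged 0.217 ± 0.117, 0.284 ± 0.127, 0.501 ± 0.386 and 0.930 ± 0.509 CPM. The range of 2.05 log2 units was not called (adjusted p = 0.0584), and it was called in DESeq2 (0.0283) and without any 1 of KO CT22 replicate 1, KO CT1 replicate 5, KO CT10 replicate 5, WT CT19 replicate 1, WT CT1 replicate 5 or WT CT10 replicate 2 (0.0374 to 0.0496).

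Per kilobase of exon the 6 genes kept the order Col4a3, Col4a4, Col4a1, Col4a2, Col4a5, Col4a6 in the means of both genotypes. In KO the levels were 22.4, 7.62, 0.908, 0.691, 0.258 and 0.054 CPM, and in WT 2.88, 2.30, 1.17, 0.896, 0.252 and 0.061 CPM. In KO, Col4a3 and Col4a4 were separated from each other and from the rest in range, while Col4a1 overlapped Col4a2, and Col4a2 overlapped Col4a5. In WT every neighbouring pair in this order overlapped: Col4a3 (1.14 to 6.42) and Col4a4 (1.16 to 3.53), Col4a1 (0.324 to 3.49), Col4a2 (0.307 to 2.06), Col4a5 (0.144 to 0.463) and Col4a6 (0.016 to 0.200).

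Across the 4 times within WT, 3 of the 6 members were called, Col4a1, Col4a2 and Col4a3, against 14.6% of all genes tested. In WT, Col4a3 averaged 21.5 ± 7.93, 25.7 ± 4.64, 25 ± 6.65 and 42.9 ± 15.3 CPM in the same order of times, a range of 1.0 log2 units (adjusted p = 0.0164). This call was lost without WT CT10 replicate 2, which had 64.0 CPM (adjusted p = 0.146), and with the inner retina (0.221), vascular (0.0527) or lens level (0.0516) as a covariate. Col4a4 in WT averaged 21.2 ± 6.94, 23.4 ± 2.94, 22 ± 4.75 and 30.9 ± 4.70 CPM over the same times, was not called (range 0.55, adjusted p = 0.139), and passed without WT CT19 replicate 4 (0.0450). Col4a5 had a range of 0.89 (adjusted p = 0.129).

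Within KO, 0 of the 6 members were called for time by edgeR, where 0.0056% of all genes were; 1, Col4a5, had an unadjusted p under 0.05 there, and DESeq2 called 0. Col4a3 in KO averaged 195 ± 26.2, 204 ± 36.1, 258 ± 28.8 and 235 ± 47.5 CPM at CT19, CT22, CT1 and CT10 (adjusted p = 0.784), and Col4a4 75.5 ± 11.7, 77.3 ± 10.2, 87.6 ± 23.5 and 83.0 ± 7.29 CPM (adjusted p = 0.928). Whether the time course differed between genotypes was tested directly by the genotype by time term. None of the 6 was called by edgeR against 1.62% of genes, 2 (Col4a1 and Col4a5) had an unadjusted p under 0.05, and DESeq2 called 1, Col4a5. For Col4a3 the KO minus WT difference had a range of 0.92 over the times (adjusted p = 0.325), for Col4a4 0.57 (0.540) and for Col4a1 1.70 (0.286).

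Libraries of the same group differed in ways the members shared. After the group means were removed, log2 CPM was correlated over the 32 libraries for all 15 pairs of members, with permutation within groups and Benjamini-Hochberg adjustment over the 15. Col4a1 and Col4a2 varied together (Pearson r = 0.89, Spearman rho = 0.90; permutation p = 1e-05 for each, the smallest that the permutations can give, adjusted p = 0.00015; r = 0.86 without the 2 libraries farthest from the median). Col4a3 and Col4a4 did so less tightly (r = 0.67, permutation p = 0.00069, adjusted p = 0.0050; rho = 0.61, p = 0.00099, adjusted p = 0.0074; r = 0.54 without the 2 farthest, 0.59 in KO and 0.71 in WT). Col4a5 went with Col4a1 (r = 0.62, permutation p = 0.0010, adjusted p = 0.0050; rho = 0.61, p = 0.0025, adjusted p = 0.0093; r = 0.60 without the 2 farthest) and with Col4a2 (r = 0.59, permutation p = 0.0030, adjusted p = 0.0113; rho = 0.62, p = 0.0023, adjusted p = 0.0093; r = 0.64 without the 2 farthest). Col4a2 and Col4a6 passed by r alone (r = 0.51, permutation p = 0.0101, adjusted p = 0.0303; rho = 0.46, p = 0.0244, adjusted p = 0.0620; r = 0.42 without the 2 farthest). The other 10 pairs did not pass by either measure, among them all 8 pairs that join Col4a3 or Col4a4 to another member, with r from -0.47 to -0.14.

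Marker levels of other cell types varied with some members in the same way, among 84 pairs of a member and a marker list. The lens level correlated with Col4a1 (r = 0.61, permutation p = 0.00022, adjusted p = 0.0149; rho = 0.69, p = 0.00017, adjusted p = 0.0097; r = 0.64 without the 2 farthest), with Col4a2 (r = 0.54, permutation p = 0.0017, adjusted p = 0.0270; rho = 0.57, p = 0.0015, adjusted p = 0.0239; r = 0.55 without the 2 farthest) and with Col4a6 (r = 0.60, permutation p = 0.00066, adjusted p = 0.0149; rho = 0.54, p = 0.0045, adjusted p = 0.0472; r = 0.60 without the 2 farthest). The vascular endothelium level correlated with Col4a2 (r = 0.57, permutation p = 0.0043, adjusted p = 0.0406; rho = 0.60, p = 0.0021, adjusted p = 0.0256; r = 0.59 without the 2 farthest), and the bipolar level with Col4a2 (r = 0.66, permutation p = 0.00071, adjusted p = 0.0149; rho = 0.61, p = 0.0016, adjusted p = 0.0239; r = 0.62 without the 2 farthest). Bipolar markers with Col4a1 (r = 0.60), Müller glia markers with Col4a2 (r = 0.59) and pericyte markers with Col4a2 (r = 0.56) passed as well by r. So did the 1 cornea gene tested, Aldh3a1, with Col4a1 and Col4a2 (r = 0.54 and 0.62). Aldh3a1 was very low, at 0.22 ± 0.33 CPM in KO and 0.20 ± 0.25 CPM in WT. By rho, bipolar with Col4a1 and Müller glia with Col4a2 did not pass (permutation test, adjusted p = 0.0575 for each). For bipolar with Col4a1, r was 0.76 in WT and 0.28 in KO, and for Müller glia with Col4a2, 0.77 and 0.27. Over the 32 libraries together, no marker list passed for Col4a3, Col4a4 or Col4a5. For Col4a5 the sign of r differed by genotype with some lists. With horizontal cell markers r was 0.78 in WT and -0.47 in KO, and with bipolar markers 0.73 and -0.31. With lens markers it was 0.29 in both. The genotypes were not tested apart. The part of other cells in the levels of Col4a1, Col4a2 and Col4a6 was not tested beyond these correlations and the covariates above.

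**Figure D5:**
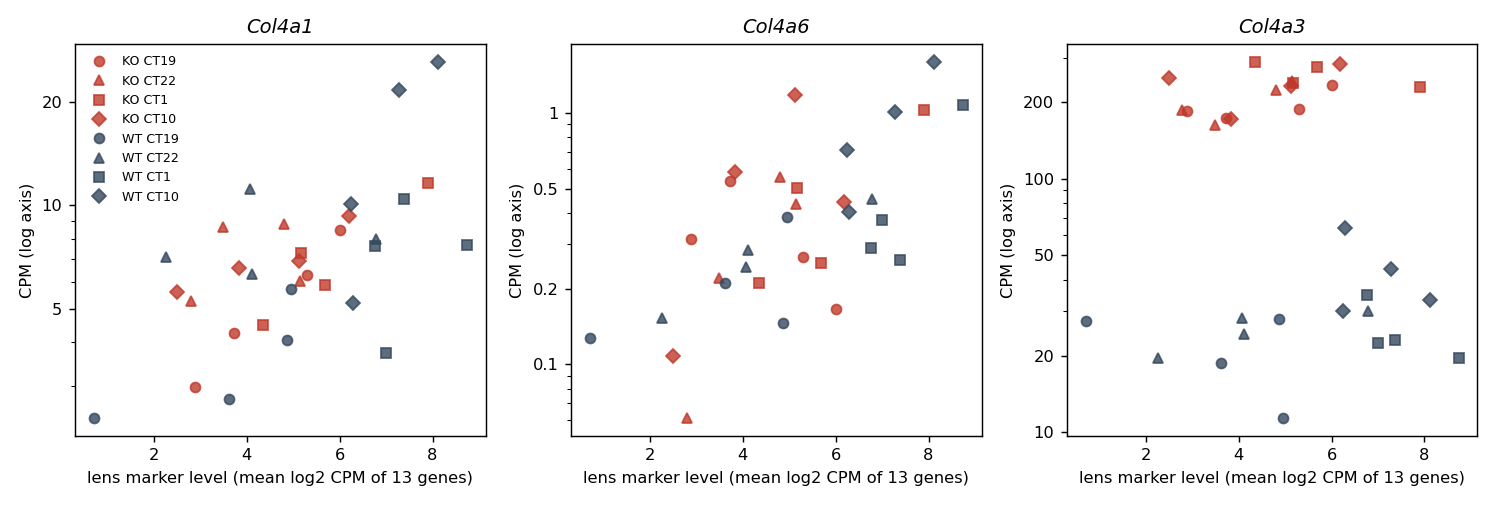
CPM (log axis) of Col4a1, Col4a6 and Col4a3 against the lens marker level, the mean log2 CPM of 13 lens genes, with 1 point per library. Col4a1 and Col4a6 are higher in libraries with a high lens level, while the points of Col4a3 split by genotype over the lens levels that both genotypes cover. The lens level runs from 2.50 to 7.91 in KO and from 0.70 to 8.74 in WT.

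The genes most like each member were taken from 10606 genes, as a description. Over all 32 libraries Col4a3 was most like Col4a4 (r = 0.98), then Tef (0.96), a clock-controlled PAR-bZIP factor, and Akap5 (0.96), a kinase A anchoring protein; Col4a4 had the same order with Col4a3, Tef and Akap5, and these values reflect the difference between genotypes that all of them hold. With the group means removed, Exoc5 (0.80), Sgip1 (0.76) and Ahrr (0.75) came first for Col4a3, and Col4a4 was in place 15. Col4a1 had Col4a2 (0.93), Igfbp7 (0.87), a secreted protein of vessel walls, and Grifin (0.68), a lens galectin-related gene. Col4a6 had the basement membrane gene Nid1 (0.79), Cd24a (0.72) and the lens connexin gene Gja3 (0.72). For Col4a5 the values were lower, with Col4a1 (0.62), Igfbp7 (0.61) and Tex9 (0.61).

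Genes that build, bind or remodel basement membranes were read for KO against WT over all times, a contrast in which 16.3% of genes were called and the median log2 fold change was -0.003. Of 10 tested laminins, 2 were called. Lamc1, the gamma chain of most laminins, was lower in KO, with 16.5 to 24.1 CPM in KO and 24.7 to 39.2 CPM in WT, with a log2 fold change of -0.59 ± 0.06 (adjusted p = 2.37e-08) and no overlap between the genotypes. Lamb2 was higher, at 2.77 ± 0.81 CPM in KO and 1.92 ± 0.50 CPM in WT (0.53 ± 0.14, adjusted p = 0.0080). Of 16 other basement membrane genes, 4 were called, all higher in KO: Ntn4 (0.63 ± 0.14, adjusted p = 0.0018), the heparan sulfate proteoglycan Agrn (0.77 ± 0.20, 0.0086), Fras1 (0.77 ± 0.20, 0.0096) and Smoc1 (0.61 ± 0.19, 0.0267). The list medians were 0.31 and 0.29.

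Among 25 genes that fold, export or cross-link collagen, 3 were called and the median was 0.05. Loxl4, a lysyl oxidase-like gene, was lower in KO at 0.107 ± 0.092 CPM, against 0.459 ± 0.374 CPM in WT (-2.01 ± 0.42, adjusted p = 0.0011), with libraries that overlapped. Loxl3 (0.78 ± 0.27, adjusted p = 0.0405) and Pxdn, the peroxidasin that cross-links type IV collagen (0.45 ± 0.16, 0.0477), were higher. Of 12 cell receptors for type IV collagen and laminin 4 were called, all higher: Itgb1, the beta chain of most such integrins (0.23 ± 0.04, adjusted p = 4.07e-05), the collagen receptor kinase Ddr1 (0.43 ± 0.11, 0.0098), Bcam (0.64 ± 0.19, 0.0169) and Itga1 (0.71 ± 0.23, 0.0304). Of 12 turnover genes 1 was called, Timp2, higher in KO (0.42 ± 0.14, adjusted p = 0.0377); the medians of these lists were 0.12 and 0.23.

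Of 30 other collagen genes, 7 were called, 6 higher and 1 lower, with a median of 0.33. The lower one, Col5a3, had 0.411 to 1.64 CPM in KO and 2.40 to 7.93 CPM in WT, which did not overlap (-2.06 ± 0.17, adjusted p = 1.99e-10). Higher in KO were Col23a1 (9.85 ± 1.86 CPM, against 7.21 ± 2.99 CPM in WT; 0.50 ± 0.13, adjusted p = 0.0108), Col2a1 (8.53 ± 2.68 CPM, against 5.61 ± 2.95 CPM in WT; 0.67 ± 0.18, 0.0109), Col9a2 (0.81 ± 0.23, 0.0158) and the low Col16a1 (1.13 ± 0.35, 0.0260). Beside these lists stand the marker values above, in which bipolar, Müller glia and endothelial genes were higher in KO by median log2 fold changes of 0.50, 0.41 and 0.62; their part in the lists was not tested. The lists were drawn up with earlier results of these data known.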

How the data were processed

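The authors deposited 1 table of raw read counts per Ensembl gene for 54232 genes in 32 libraries. Trimmomatic 0.32, HISAT2 2.1.0, Cufflinks, HTSeq 0.11 and the build GRCm38.p6 are named in the submitters' processing notes, with the annotation release and strand setting not given in the sources used here. Therefore reads from overlapping genes on opposite strands cannot be told apart.

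The counts entered edgeR 4.0.16 (R 4.3.3). Genes passing filterByExpr (minimum count 10, minimum total 15) were scaled by TMM, and the 8 group means were fitted together (24 residual degrees of freedom) and tested by robust quasi-likelihood. Benjamini-Hochberg adjustment ran over all 17871 genes tested, and a gene is called at an adjusted p under 0.05. Time and genotype by time were F tests, given with the log2 range between the highest and lowest fitted mean (or KO minus WT difference). CPM values are TMM-scaled. Log2 CPM for correlations used a prior count of 2. Correlations between members were computed after the group means were removed, with 100000 permutations within groups, in Python 3.11.15. The procedure was also run on simulated counts in which some genes changed in KO. They held no differences in time or cell content, so the run says nothing of those.

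Positions and symbols came from the GENCODE annotation of GRCm38, which named 54165 of the 54232 identifiers, and promoter windows from RefSeq. The members and gene lists were chosen with earlier results of these data known. The rule for naming genes took all 6 members, Per1 and Per2, up to 4 genes of each list with the smallest p plus called genes with a log2 fold change of 1 or more either way in the lists of basement membrane and collagen genes, the chromosome 1 neighbours described in the text, and the 3 genes most like each member. Not all of these are written out. The alternatives were DESeq2 1.42.0, its size factors in edgeR, no filter, a replicate block, a term for the order of the titles, marker levels of inner retina, vessels or lens as a covariate, and libraries left out.

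The labels give an animal number in each title but do not say that a number marks a shared animal or batch. Over 77 pairs of libraries of different groups with the same number, deviations from the group means correlated with a median r of -0.01 (range -0.21 to 0.30), against -0.002 for other pairs, so the numbers were not taken to pair the samples. Library totals were 23833604 to 34582742 counts, so 1 CPM before scaling rests on at least 23.8 counts. No libraries of a group were identical or agreed within sampling noise. The labels do not state that the libraries of a group came from separate animals beyond these numbers, and p-values measure the spread between these libraries.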

Additional observations from a re-analysis of the deposited data

Results flagged for a closer look

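In 48 sets of a member and a group of 4 libraries, 2 held a library far from the other 3 by Dixon's criterion (the gap to the nearest other library over the whole range), which chance gives in about 1 of 20 sets. Col4a5 had 3.51 CPM in KO CT22 replicate 4, against 1.65 to 1.83 CPM in the other 3 libraries, with a ratio of 0.903. Without that library the mean log2 fold change of Col4a5 between KO and WT was -0.06 (adjusted p = 0.822). Col4a6 had 1.07 CPM in WT CT1 replicate 5, against 0.261 to 0.376 CPM in the others, with a ratio of 0.858. That library is the one whose title carries 2 animal numbers, and its lens marker level of 8.74 (mean log2 CPM) was the highest of all 32. By the same criterion neither library was set apart in the level of Col4a3 or Col4a4. KO CT22 replicate 4 had the lowest Col4a3 of the KO libraries (163 CPM) with the highest Col4a4 of its group (84.3 CPM). Its ratio of Col4a3 to Col4a4 per kilobase, 2.06, was the lowest in KO. WT CT1 replicate 5 was lowest of its group in both genes (19.6 and 18.2 CPM).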

How the results depend on the processing

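Col4a4 was called between KO and WT over the mean and at each time under all 41 alternatives (log2 fold change 1.70 to 1.84 over the mean), and the mean of Col4a3 stayed between 2.95 and 3.13. These calls of Col4a4 are tied to the choice of the family and are not independent evidence. The number of members called, with Col4a4 counted, changed as follows. At CT10 it was 1, and 3 with DESeq2, with the inner retina or vascular level as a covariate and without WT CT10 replicate 2 (1 to 3 over the libraries left out), while the number of all genes called was 1825 in the reported fit, 2237 with DESeq2, 196 and 301 with the inner retina and vascular covariates and 946 without that library. Over the mean of the times it was 1, and 2 with either covariate, the added gene being Col4a2 (-0.73 and -0.66), while all genes called numbered 2909 in the reported fit and 755 and 846 with the inner retina and vascular covariates. Levels of both covariates themselves differed between the genotypes, as given above. For genotype by time it was 0, and 1 with DESeq2, with 289 and 913 of all genes called. For time within WT it was 2 to 4 over the libraries left out. With the replicate block 2 members were called for time within WT, Col4a2 being at an adjusted p of 0.0535, and no other member's call changed.

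Directions turned only where a member was not called. Over the mean, Col4a1 was at 0.021 with the lens level; Col4a5 at -0.11 with the inner retina and -0.094 with the vascular level, and -0.060 to 0.10 with libraries left out; Col4a6 at -0.028 with the replicate block, -0.056 with the title order, -0.11 with the inner retina level, and -0.15 to 0.17 with libraries left out. At CT19, Col4a2 was at -0.23 with the inner retina and -0.069 with the vascular level. At CT22, leaving out libraries gave -0.28 to 0.024 for Col4a1, -0.56 to 0.030 for Col4a2 and -0.23 to 0.52 for Col4a6, which was at -0.0039 with the title order. At CT1, the lens level gave 0.36 for Col4a1 and 0.21 for Col4a2, leaving out the 2 libraries with other titles gave 0.015 for Col4a1, and libraries left out singly gave -0.32 to 0.21 for Col4a1, -0.30 to 0.081 for Col4a2 and -0.60 to 0.69 for Col4a6; Col4a6 was at -0.22 with the replicate block and -0.021 with the inner retina level. At CT10 Col4a6 was at 0.42 with the lens level. In KO libraries alone Col4a3 correlated at 0.059 with Col4a1 and at 0.076 with Col4a2. The cause of these changes was not tested. Col4a6 had the fewest counts, 2 to 52 a library.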
